A study of Mus musculus with 7 samples.

Results

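The transcripts of 8 genes that encode the machinery of regulated cell death were followed in liver after a single dose of carbon tetrachloride (CCl4), a solvent that hepatocytes turn into reactive radicals. The genes were chosen by symbol, for their roles, and matched to Ensembl identifiers, 1 row for each. They are the caspases Casp1, Casp12, Casp8, Casp9 and Casp6, the kinases Ripk1 and Ripk3, and Mlkl. All 8 were among the 14851 identifiers of the deposited table, and all 8 had a mean of at least 10 normalised counts and so were among the 12545 genes tested. The livers came from male C57BL/6J mice of about 70 days that were given CCl4 into the peritoneum (a 20% stock in corn oil, at 1 mL/kg) and sampled after 8 h. All 7 mice carried the Albumin-Cre transgene. In 4 of them both Trp53 alleles were floxed (Albumin-Cre; p53 FL/FL, here FL), and in 3 they were intact (Albumin-Cre; p53 WT/WT, here WT). Some mice of either genotype may also carry a red fluorescent Cre reporter at Rosa26, and which ones is not given in the sources used here. The Albumin promoter drives Cre in hepatocytes, and cells of an FL liver in whose lineage it was never active keep Trp53. Which cell types those are was not tested, and untreated livers were not analysed here. A normalised count is a read count divided by the size factor of its library, which the authors rounded to a whole number. The livers had 11900000 to 19500000 reads on genes, by an estimate from the spacing of the low values, and 1 read was worth 0.812 to 1.38 normalised counts. Trp53, the gene that was deleted, had normalised counts of 131, 130, 217 and 110 (FL) against 876, 688 and 831 (WT), in the order of the replicate numbers as in all such lists that follow, and the groups did not overlap (log2 fold change -2.47, standard error 0.23, limma adjusted p = 0.0447). Under 17 other settings its log2 fold change lay between -2.78 and -2.35. Its limma adjusted p, however, was under 0.05 in 7 of them and at or above it in 10. That p ranged from 2.58e-05 (without WT replicate 2 and FL replicate 3) to 1 (with the replicate number as a block). Such a block also takes FL replicate 4 out of the comparison, since no WT liver has its number.

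Caspases are proteases that cut after aspartate and are made as inactive precursors. Casp8 is the initiator that death receptors such as Fas and the TNF receptor recruit, Casp9 is the initiator that the apoptosome activates once cytochrome c has left the mitochondria, and Casp6 is an executioner that cuts nuclear lamins. Casp1 matures interleukin-1 beta and interleukin-18 in inflammasomes, and Casp12 belongs to the same inflammatory group and has been linked to the endoplasmic reticulum. When caspase-8 is blocked, Ripk1 and Ripk3 can instead form a complex in which Ripk3 phosphorylates Mlkl, and Mlkl then ruptures the plasma membrane, a death called necroptosis. These steps are switched by cleavage, binding and phosphorylation of the proteins, none of which a transcript level measures.

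None of the 8 transcripts differed between FL and WT livers beyond the spread between replicates. In limma across all genes 0 of 8 had a Benjamini-Hochberg adjusted p under 0.05, where 0.0159% of the genes tested did, and 0 of 8 had an unadjusted p under 0.05, where 3.2% did. In 0 of 8 was every FL liver above every WT liver (2.77% of the genes tested) and in 0 of 8 was every FL liver below every WT liver (1.98%). The log2 fold changes, positive where FL was higher, ran from -0.18 for Casp1 to 0.12 for Mlkl, with 3 genes higher and 5 lower in FL livers and a median of -0.07, against a median of 0.01 over all genes tested. All 8 adjusted p-values were 0.999, and exact two-sided permutation tests, with 35 possible splits and 0.0286 as their smallest p, gave values from 0.343 to 0.943.

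WT replicate 2 and FL replicate 3 stood apart from the other 5 livers across all genes. Their scores on principal component 1, with 66.7% of all variance, were 82.0 and 29.2, and those of the others ran from -25.6 to -19.1. The fold change of each of the 8 genes is therefore also given without this pair of livers. The labels give the WT mice 1 source prefix and the FL mice others, so that genotype and source cannot be told apart. In whole liver, fewer cells of a type and less RNA per cell cannot be told apart either. The tissue showed its defining hepatocyte markers (7 of 7 in the table, with a summed level of 1324830 to 2006063 normalised counts and none at 0 in any liver).

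**Figure D1:**
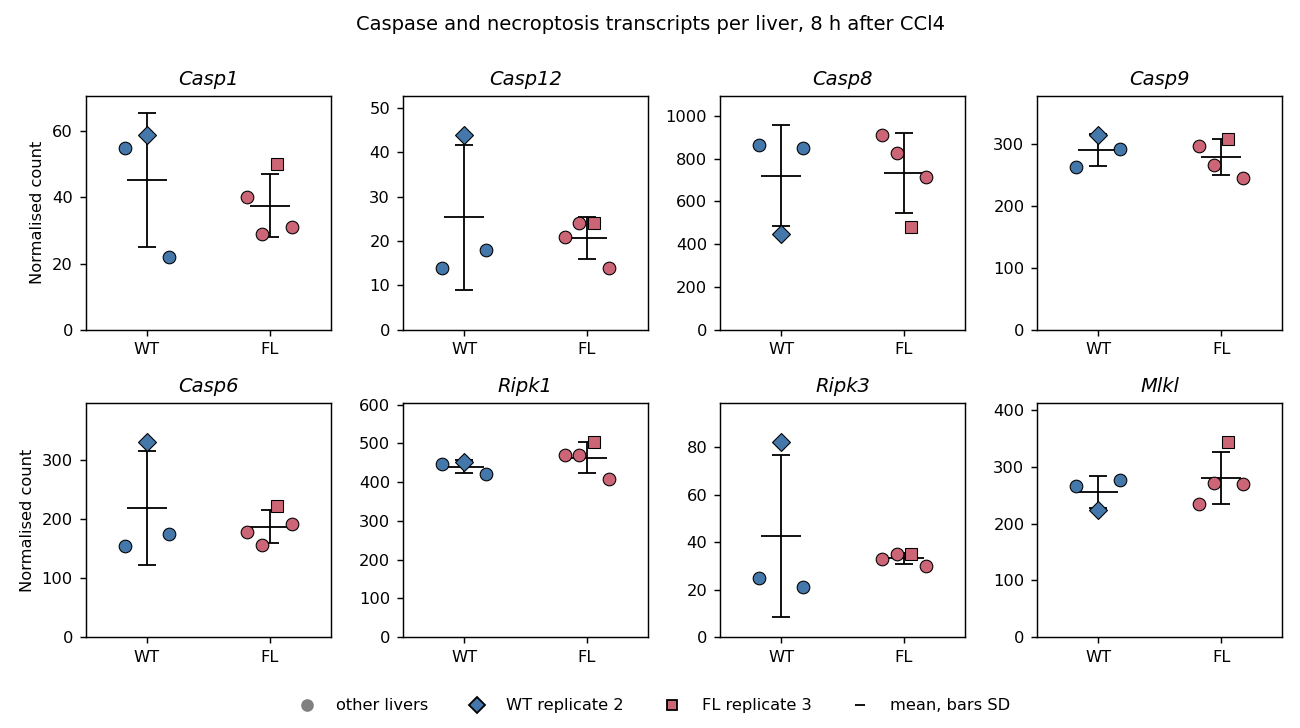
Normalised count (linear axis from 0) of each of the 8 genes in the 3 WT and 4 FL livers, 1 point a liver, with the mean and SD of each group. WT replicate 2 (diamond) and FL replicate 3 (square) are marked; the groups overlap for every gene, and WT replicate 2 is the highest liver for Casp1, Casp12, Casp9, Casp6 and Ripk3 and the lowest for Casp8 and Mlkl.

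Of the initiator caspases, Casp8 (chromosome 1 of GRCm38, 58795374 to 58847503) had the most abundant transcript of the 8 per kilobase of exon. FL livers 1 to 4 had normalised counts of 912, 828, 480 and 716, and WT livers 1 to 3 had 864, 448 and 850. The lowest liver of each genotype was the one that stood apart, and the groups overlapped over almost their whole range. The FL mean was 734 ± 187 (SD, n = 4) and the WT mean 721 ± 236 (SD, n = 3). The log2 fold change was 0.05 with a standard error of 0.29, and the 95% interval of the fold ran from 0.645 to 1.66. Without WT replicate 2 and FL replicate 3 the log2 fold change was -0.07 and its 95% interval narrowed to -0.32 to 0.18. WT replicate 2 was at 0.523 and FL replicate 3 at 0.586 of the mean of the other livers of their genotype. Of the 36-base stretches of Casp8 transcripts, 6.89% also occur in transcripts of other genes, mostly Gm20257, and 3841 bases of the gene overlap Gm37760 on the same strand.

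Casp9 (chromosome 4, 141793612 to 141815976) was even across the livers. FL livers had 298, 267, 309 and 245 normalised counts, and WT livers had 264, 316 and 293. The highest of 7 livers exceeded the lowest by 1.29 times, where the median over all genes tested was 1.66. Means were 280 ± 29.2 (FL, SD, n = 4) and 291 ± 26.1 (WT, SD, n = 3). The log2 fold change was -0.06, with a standard error of 0.13 and a 95% interval of the fold from 0.780 to 1.18, and it was -0.05 without WT replicate 2 and FL replicate 3. The gene shares 1015 bases with Cela2a on the opposite strand. The library kit kept strand, but whether the counting used it is not given in the sources used here.

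The executioner Casp6 (chromosome 3, 129901425 to 129914103) had FL values of 179, 156, 222 and 193 normalised counts and WT values of 154, 331 and 175. WT replicate 2 was 2.01 times the mean of the other WT livers, and the remaining WT livers lay within or just below the FL range. The FL mean was 188 ± 27.6 (SD, n = 4), against 220 ± 96.7 (SD, n = 3) in WT. The log2 fold change was -0.16 (standard error 0.27), and it turned to 0.09 (95% interval -0.23 to 0.42) without WT replicate 2 and FL replicate 3.

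Casp1 and Casp12, the inflammatory caspases, lie on the plus strand of chromosome 9 (5298517 to 5307265 and 5345430 to 5373032), 38.2 kilobases apart and with Casp4 between them. Neither shares a 36-base stretch with the transcripts of another gene. Casp1 had FL values of 40, 29, 50 and 31 normalised counts (37.5 ± 9.61, SD, n = 4) against 55, 59 and 22 in the WT livers (45.3 ± 20.3, SD, n = 3). The WT livers held both the highest and the lowest value of Casp1. Casp12 had 21, 24, 24 and 14 in the FL livers (20.8 ± 4.72, SD, n = 4) against 14, 44 and 18 in the WT livers (25.3 ± 16.3, SD, n = 3). Its WT replicate 2 value, with a counting interval of 32.4 to 58.3 (95%, exact Poisson on the estimated reads), was above the intervals of the other WT livers (8.22 to 23.4 and 10.6 to 27.6). Such intervals cover counting error only. The log2 fold changes were -0.18 for Casp1 (standard error 0.38, 95% interval of the fold 0.480 to 1.63) and -0.14 for Casp12 (standard error 0.42, 95% interval of the fold 0.462 to 1.795). Without WT replicate 2 and FL replicate 3 they were -0.08 and 0.26. Without WT replicate 3 alone every FL liver (29 to 50) was below both WT livers (55 to 59) for Casp1. The same held for 4.20% of the genes then tested. The log2 fold change of Casp1 was then -0.62 (limma unadjusted p = 0.0698, adjusted p = 0.911).

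Of the necroptosis genes, Ripk1 (chromosome 13, 34002363 to 34037147), the kinase that stands between survival and death below the TNF receptor, was the most even of the 8. Its normalised counts were 469, 471, 503 and 408 in the FL livers, against 447, 452 and 420 in the WT livers. The highest liver was 1.23 times the lowest, and 9.08% of the genes tested had a smaller residual SD on the log2 scale. Of the FL livers 3 were above all WT livers, and FL replicate 4 was below them. Leaving that liver out put every FL liver above every WT liver (469 to 503 against 420 to 452), as it did for 3.62% of the genes then tested, with a log2 fold change of 0.13 (limma unadjusted p = 0.264, adjusted p = 1). With all livers the FL mean was 463 ± 39.7 (SD, n = 4) and the WT mean 440 ± 17.2 (SD, n = 3). The log2 fold change was 0.07, with a standard error of 0.11 and a 95% interval of the fold from 0.881 to 1.25, and it was 0.05 without WT replicate 2 and FL replicate 3. In Ripk1, 8.24% of the 36-base stretches also occur elsewhere, mostly in the pseudogene Gm17084, and 432 bases of the gene lie opposite Serpinb6a.

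Ripk3 (chromosome 14, 55784995 to 55788865), the kinase that phosphorylates Mlkl, had the widest spread of the 8 and 89.4% of the genes tested had a smaller residual SD. It had FL values of 33, 35, 35 and 30 normalised counts (33.3 ± 2.36, SD, n = 4) against 25, 82 and 21 in the WT livers (42.7 ± 34.1, SD, n = 3). The FL livers lay close together, between the WT liver that stood apart and the remaining WT livers. WT replicate 2 was 3.57 times the mean of the other WT livers, and its counting interval of 66.3 to 101 did not reach theirs (16.7 to 36.4 and 13.6 to 32.1). With all livers the log2 fold change, which compares means of log2 values and not these means, was -0.08 (standard error 0.44, 95% interval of the fold 0.464 to 1.92). Without WT replicate 2 every FL liver (30 to 35) was above both WT livers (21 to 25), which 9.02% of the genes tested then were, and the log2 fold change was 0.52 (unadjusted p = 0.0548, adjusted p = 0.787 from limma). Without WT replicate 2 and FL replicate 3, when 12.8% of the genes tested had every FL liver above every WT liver, it was 0.49 (standard error 0.25, unadjusted p = 0.0789, adjusted p = 0.571).

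Mlkl (chromosome 8, 111311797 to 111338177), the pore-forming effector, had 234, 271, 343 and 270 normalised counts in FL livers, with WT values of 266, 224 and 276. FL replicate 3 was the highest liver and WT replicate 2 the lowest, so these livers moved in opposite directions for Mlkl. The remaining livers lay between 234 and 276 in both genotypes. The FL mean was 280 ± 45.7 (SD, n = 4) and the WT mean 255 ± 27.6 (SD, n = 3). The log2 fold change of 0.12 (standard error 0.16, 95% interval of the fold 0.846 to 1.40) became -0.07 without the livers that stood apart. No stretch of Mlkl, and none of Ripk3, was shared with another gene.

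**Figure D2:**
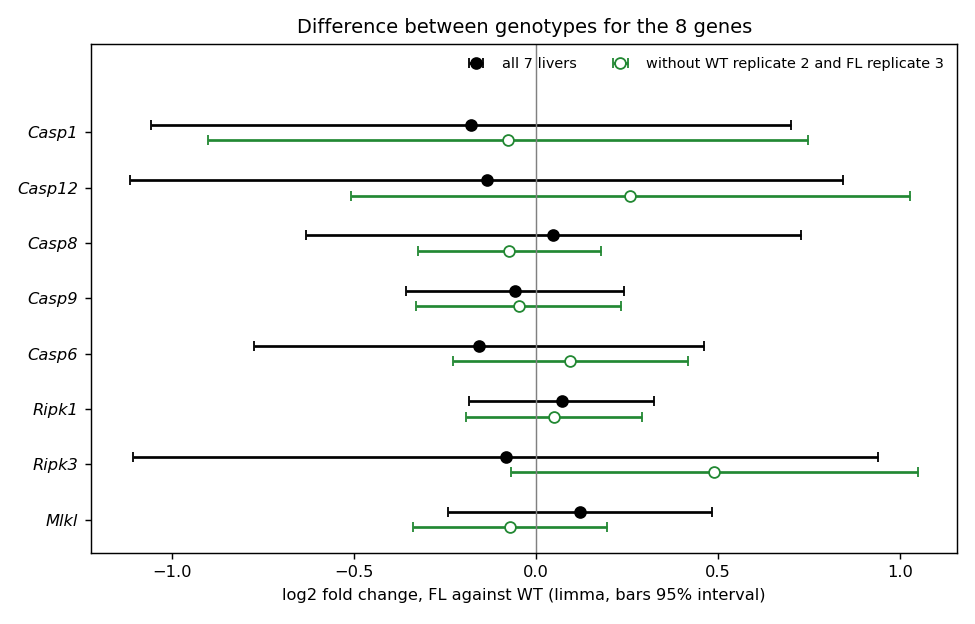
log2 fold change of FL against WT livers from limma for the 8 genes, with 95% intervals, over all 7 livers (filled) and without WT replicate 2 and FL replicate 3 (open). Every interval includes 0, all 8 are narrower without this pair of livers, and Ripk3 goes from -0.08 to 0.49.

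Levels of different genes were compared as normalised counts per kilobase of merged exon, a scale on which the median gene tested was at 67.4. Casp8 was highest, with an FL mean of 254 ± 64.8 (SD, n = 4) and a WT mean of 249 ± 81.7 (SD, n = 3), above 79.6% of the genes tested. Mlkl followed at 121 ± 19.8 and 111 ± 12.0 (FL and WT means with their SDs, as for the genes that follow). Both orders held in 7 of 7 livers. Casp9 (53.8 ± 5.62 and 56.0 ± 5.01) and Ripk1 (55.5 ± 4.76 and 52.7 ± 2.06) could not be ranked, since Casp9 was the higher in 3 of 7 livers. Casp6 (33.6 ± 4.94 and 39.4 ± 17.3) was below Ripk1 in 6 of 7 livers and above Casp1 (25.1 ± 6.42 and 30.3 ± 13.6) in 6 of 7. Ripk3 (14.5 ± 1.03 and 18.6 ± 14.9) and Casp12 (5.40 ± 1.23 and 6.60 ± 4.24) were the lowest in that order in 7 of 7 livers, and 9.23% of the genes tested were below Casp12. On this scale Mlkl was therefore above Ripk3, the kinase that acts on it, in both genotypes. The merged exon length counts the exons of every annotated isoform, 8344 bases for Ripk1 and 1497 for Casp1, so it understates genes with long isoforms that the liver does not make.

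**Figure D3:**
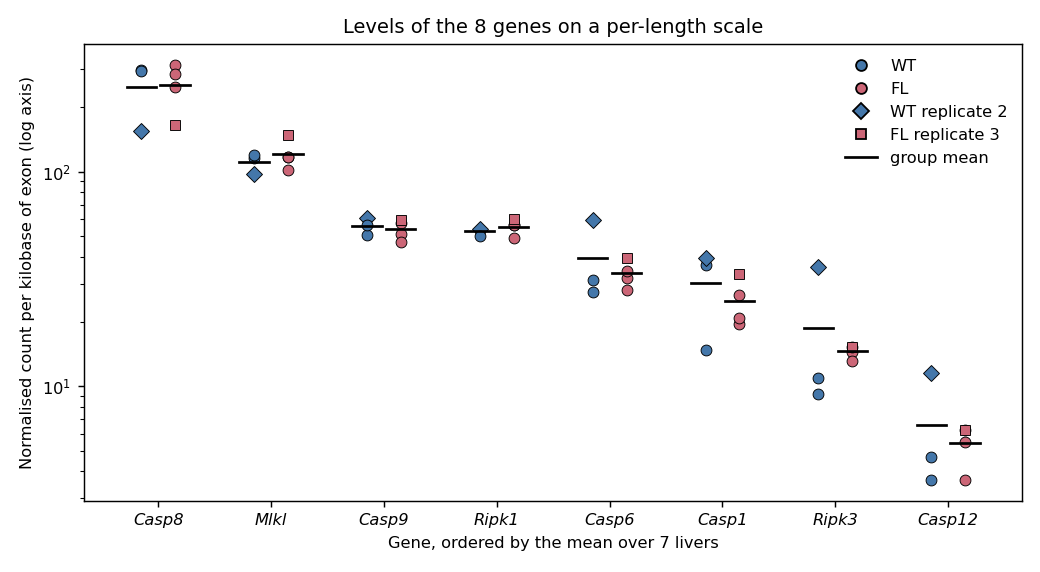
Normalised count per kilobase of merged exon (log axis) of the 8 genes in each liver, ordered by the mean over the 7 livers, with a bar at the mean of each group. Casp8 is the highest and Casp12 the lowest in every liver, while Casp9 and Ripk1 overlap.

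The 250 bases upstream of the RefSeq transcription start (GRCm38.p6) are shown for 4 of the genes, a pair whose transcripts were low and uneven across the livers (Casp1 and Ripk3) and a pair that was even (Casp9 and Ripk1). Each is written 5′ to 3′ on the strand of its gene, with every CpG in capitals, because the windows differ in how many they hold.

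Casp1, chr9:5298267-5298516, plus strand: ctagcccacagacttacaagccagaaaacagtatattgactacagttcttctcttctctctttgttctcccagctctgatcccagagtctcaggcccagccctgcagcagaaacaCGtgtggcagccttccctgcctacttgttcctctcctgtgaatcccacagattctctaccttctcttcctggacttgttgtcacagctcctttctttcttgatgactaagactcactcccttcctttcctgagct

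Ripk3, chr14:55788858-55789107, minus strand: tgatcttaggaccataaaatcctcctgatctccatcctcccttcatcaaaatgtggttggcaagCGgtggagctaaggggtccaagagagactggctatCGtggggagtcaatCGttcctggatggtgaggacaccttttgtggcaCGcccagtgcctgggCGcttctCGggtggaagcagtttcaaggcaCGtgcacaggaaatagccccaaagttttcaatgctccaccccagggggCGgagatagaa

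Casp9, chr4:141793362-141793611, plus strand: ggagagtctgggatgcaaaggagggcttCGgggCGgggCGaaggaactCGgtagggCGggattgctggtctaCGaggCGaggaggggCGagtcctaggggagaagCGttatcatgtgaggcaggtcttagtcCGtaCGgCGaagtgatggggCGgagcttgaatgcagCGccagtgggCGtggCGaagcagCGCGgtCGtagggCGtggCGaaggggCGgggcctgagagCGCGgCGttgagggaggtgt

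Ripk1, chr13:34002113-34002362, plus strand: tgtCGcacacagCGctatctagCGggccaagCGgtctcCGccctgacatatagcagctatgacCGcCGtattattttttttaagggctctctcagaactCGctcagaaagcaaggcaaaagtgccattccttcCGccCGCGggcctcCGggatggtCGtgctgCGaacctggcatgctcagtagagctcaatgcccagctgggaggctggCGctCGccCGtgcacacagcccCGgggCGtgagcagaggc

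Counted over these 250 bases, the window held 1 CpG in Casp1, 8 in Ripk3, 25 in Casp9 and 19 in Ripk1, where the median over 32851 RefSeq windows was 6 and the quartiles were 2 and 16. Casp12, the lowest of the 8, had 1 CpG in its window, Casp6 had 11, and Casp8 and Mlkl had 5 each, so the CpG count did not order the genes by level. The windows shown were picked by level and evenness, and whether the CpG count goes with evenness was not tested. The RefSeq start site of Casp8 lies 7128 bases downstream of the GENCODE gene start, and Ripk1 has another start with 32 CpG. Since the mice differ in Trp53, the 300-base windows (250 bases before and 50 after the start) were also searched on both strands for the p53 half-site, the decamer that p53 binds. It occurred in 0 of the 9 windows of the 8 genes and in 8.36% of all windows. A window without these letters says nothing of p53 binding there or elsewhere in the gene.

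WT replicate 2 was the highest of the 7 livers for 5 of 8 (31.5% of the genes tested) and the lowest for 2 of 8 (33.9%). FL replicate 3 was the highest FL liver for 5 of 8 (35% of the genes tested) and the lowest for 1 of 8, Casp8 (34.5%). Casp8 was thus low, and Casp1, Casp9 and Casp6 high, in both. Markers of other cell types moved with these livers. Against the other livers of its genotype, WT replicate 2 had 3.91 times the summed level of 3 leukocyte markers (Ptprc, Coro1a and Laptm5), 4.60 times that of 8 lymphocyte markers, 2.42 times that of 8 macrophage markers and 3.92 times that of 5 stellate cell markers. Endothelial markers (6 genes) were at 1.33 times and hepatocyte markers at 1.16 times. Neutrophil markers (6 of 7 in the table) were at 2.17 times and 7 proliferation genes at 9.99 times. WT replicate 2 was the highest liver for 3 of the 6 neutrophil, 4 of the 6 endothelial and 0 of the 7 hepatocyte markers. It was the highest for 7 of the 8 macrophage markers and for every leukocyte, lymphocyte, stellate and proliferation gene listed. Of the neutrophil markers 2, and of the lymphocyte markers 2, were at 0 in at least 1 liver. In FL replicate 3 the leukocyte sum was 2.11 times, the lymphocyte sum 2.64 times and the macrophage sum 1.39 times that of the other FL livers, and Casp1 was 1.5 times, Mlkl 1.33 times, Casp6 1.26 times, Casp12 1.22 times, Casp9 1.14 times, Ripk1 1.12 times, Ripk3 1.07 times and Casp8 0.586 times the mean of those livers. Bile duct markers (5 genes) were at 0.450 times in FL replicate 3 and 1.16 times in WT replicate 2. The leukocyte sum ranged from 449 to 1061 in FL and from 480 to 2000 in WT livers, and the macrophage sum from 4872 to 7806 and from 4864 to 12545. The part of these cells in the levels of Ripk3, Casp12, Casp1, Casp6 and Casp8 was not tested.

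**Figure D4:**
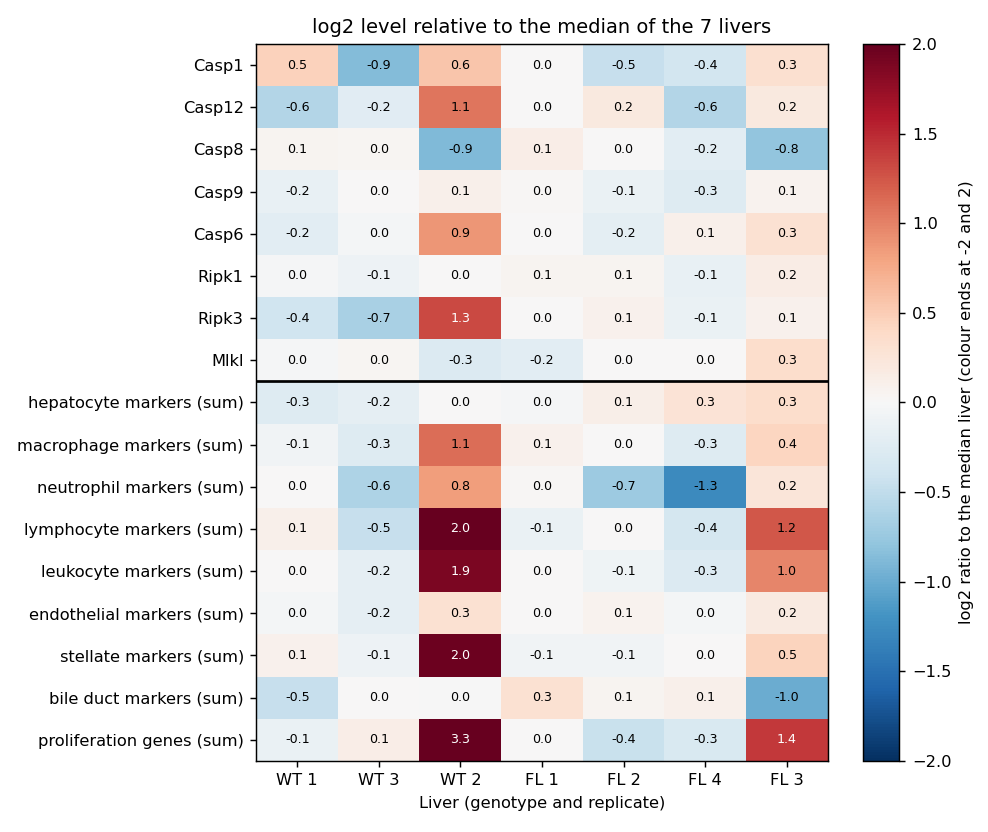
log2 level of the 8 genes (above the line) and of the summed marker lists (below it) in each liver, relative to the median of the 7 livers; the colour ends at -2 and 2. WT replicate 2 is high for Ripk3, Casp12 and Casp6 and for the leukocyte, lymphocyte, macrophage and stellate lists, and WT replicate 2 and FL replicate 3 are low for Casp8.

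The genes whose log2 levels followed each member most closely over the 7 livers were read off all genes tested by Pearson's r, as a description, since 7 livers that share 2 outlying ones allow many high values among 12545 genes. For Casp8 they were Orm2, an acute phase protein, and Jag1, a Notch ligand (r = 0.997 for each, and 0.990 and 0.991 over the 5 livers without WT replicate 2 and FL replicate 3). For Casp6 they were S1pr4 and Dffa, the inhibitor of the caspase-activated nuclease (r = 0.992 and 0.991, and 0.991 and 0.926 over 5 livers). For Ripk3 they were 2700049A03Rik and Stab2, a scavenger receptor of liver sinusoidal endothelium (r = 0.991 and 0.990, and 0.980 and 0.967). Casp12 was followed by Micall2 and Slc18b1 (r = 0.997 and 0.988) and Casp1 by Adck5 (0.988). Casp9 was followed by Nlrx1 and Wdr13 (0.983 and 0.981) and Ripk1 by Sncaip and Inhbc (0.991 and 0.95). Some of these genes were low or nearly level. Sncaip was at 6 to 16 normalised counts over the 7 livers, S1pr4 at 7 to 25 and Adck5 at 579 to 646. For Mlkl the nearest were Wnk4 and Pdia5 (0.960 and 0.954), with 0.878 and 0.684 over the 5 livers. Values over 5 livers are not a separate check, since those livers were among the 7 by which the genes were picked.

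The genes around the 8 were read from 6 lists of other genes of the same pathways. Of 62 genes 61 were in the table (Casp14 was not) and 58 were tested. None passed the adjusted threshold, and at an unadjusted p under 0.05 there were 0 higher and 3 lower in FL livers (limma), where 3.2% of all genes tested passed in either direction. Every FL liver was above every WT liver for 0 and below for 4 of the 58 (2.77% and 1.98% of all genes tested), and 29 were higher and 29 lower in FL livers. The caspases besides the 5 above (4 tested, 1 higher and 3 lower) had a median log2 fold change of -0.29. Casp2, an initiator activated by the PIDDosome, was at 99 to 120 in FL and 124 to 132 in WT livers, and the groups did not overlap (log2 fold change -0.27, standard error 0.13, limma unadjusted p = 0.0781, adjusted p = 0.999, and -0.23 without WT replicate 2 and FL replicate 3). Casp4, which senses lipopolysaccharide in the cytosol, was at 24 to 38 in FL and 21 to 60 in WT livers.

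Among death receptors, ligands and adaptors (11 tested, 4 higher and 7 lower, median -0.06) were 2 of the 3 genes with an unadjusted p under 0.05. Tnfrsf10b, the mouse receptor of the death ligand TRAIL, had FL values of 3, 8, 19 and 4 normalised counts against WT values of 11, 74 and 26. It was highest within each genotype in the liver that stood apart, and FL replicate 3 was above WT replicate 1. The log2 fold change was -1.90 (standard error 0.76, limma unadjusted p = 0.0370, adjusted p = 0.999). Without WT replicate 2 and FL replicate 3 it was -1.67 (limma unadjusted p = 0.0128). Tnfrsf21, death receptor 6, was at 97 to 150 in FL and 150 to 226 in WT livers. Its log2 fold change was -0.52 (limma unadjusted p = 0.0355, adjusted p = 0.999). Without those livers it was -0.44 (limma unadjusted p = 0.0269). Of the 12325 genes tested without them, 1200 had a limma unadjusted p under 0.05. Tnfrsf1a, the TNF receptor that recruits Ripk1, was at 2485 to 2683 in FL and 2359 to 2511 in WT livers (log2 fold change 0.12). Fasl and Tnf were too low to be tested.

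In the apoptosome and caspase inhibitor list (8 tested, 4 higher and 4 lower, median -0.02) the smallest unadjusted p was that of Apaf1, the scaffold that activates Casp9, at 56 to 83 in FL and 70 to 137 in WT livers (log2 fold change -0.40, standard error 0.26, unadjusted p = 0.168). Cycs, cytochrome c, had a log2 fold change of 0.14 and Diablo, an antagonist of the inhibitors of apoptosis, one of -0.06. Of the caspase substrates (7 tested, 3 higher and 4 lower, median -0.06), 3 had every FL liver below every WT liver, where 1.98% of all genes tested did, and none of the 3 had an unadjusted p under 0.05. Lmna, the lamin A/C gene and a target of Casp6, was at 2291 to 2499 in FL and 2562 to 3064 in WT livers (log2 fold change -0.19). Parp1 was at 670 to 764 and 800 to 821 (-0.16), and Gsdme, a gasdermin that caspase-3 cleaves, at 130 to 145 and 146 to 169 (-0.15). Their limma unadjusted p-values were 0.111, 0.128 and 0.253, and each adjusted p was 0.999.

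The inflammasome and pyroptosis list, which holds the partners and substrates of Casp1, had 13 genes tested, 6 higher and 7 lower, with a median of -0.03. Il1a was at 19 to 30 in FL and 28 to 64 in WT livers (log2 fold change -0.77, standard error 0.32, limma unadjusted p = 0.0464, adjusted p = 0.999), and -0.55 without WT replicate 2 and FL replicate 3 (limma unadjusted p = 0.104). Il1b, the substrate of Casp1, was at 17 to 29 in FL livers (log2 fold change -0.74, limma unadjusted p = 0.136, standard error 0.44). WT replicates 1 to 3 had 41, 65 and 17 for Il1b, the same order of WT livers as Casp1. Ripk3, Casp4, Il1a and the summed macrophage and leukocyte markers had that order too, so it was not particular to Il1b. Nek7, which activates the NLRP3 inflammasome, was at 570 to 754 and 579 to 603 (0.19). In the list of necroptosis regulators (15 tested, 11 higher and 4 lower, median 0.08) Tnfaip3, the ubiquitin-editing enzyme A20, was at 118 to 173 in FL and 155 to 180 in WT livers (-0.29), Rnf31, a subunit of the linear ubiquitin ligase, at 758 to 857 and 536 to 834 (0.27), and Tbk1, a kinase that restrains Ripk1, at 629 to 727 and 510 to 672 (0.22). Their limma unadjusted p-values were 0.108, 0.112 and 0.113.

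**Figure D5:**
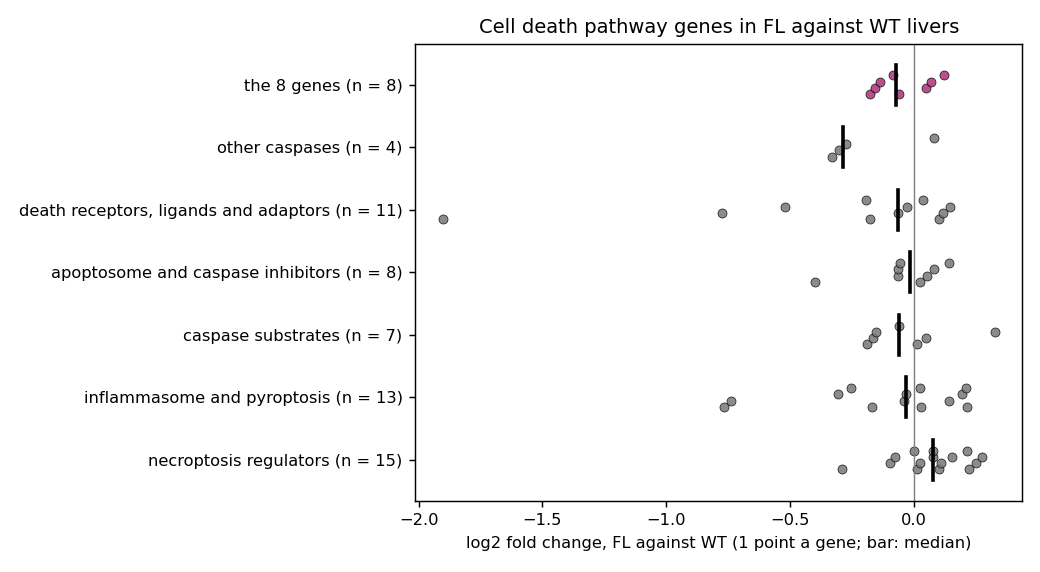
log2 fold change of FL against WT livers for the 8 genes and for the genes tested in 6 lists of the same pathways, 1 point a gene, with a bar at the median of each list. The 8 genes lie between -0.18 and 0.12, and the point farthest from 0 is Tnfrsf10b at -1.90.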

How the data were processed

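Liver RNA of 4 FL and 3 WT mice was compared. Per the labels and the paper, stranded paired-end reads were aligned to mouse (Ensembl release 75) by TopHat2 version 2.0.13, counted, and normalised by DESeq2. The paper names HTSeq for the counting, and the processing tools listed for the samples hold both HTSeq and featureCounts. The deposited values were treated as a score, because the authors rounded normalised counts to whole numbers and raw counts could not be recovered, so no count test was run. Identical rows were kept once (14988 rows, 14851 identifiers). Symbols, coordinates and exon lengths came from GENCODE vM21 (GRCm38), and promoters from RefSeq.

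Log2(normalised count + 1) was fitted by limma version 3.58.1 in R version 4.3.3 with a mean-variance trend, on the 12545 genes whose mean was 10 or more, with Benjamini-Hochberg adjustment over all of them. On this scale fold changes of low genes are understated. Simulated livers had noise drawn independently for each gene and liver. None of them stood apart across genes as WT replicate 2 and FL replicate 3 did. The shares that follow need not hold for the real livers. With the spread of all 7 and 200 of 12418 genes changed, limma called 52% of the genes changed by 1 log2 unit. It called 87% of those changed by 2, with 6 unchanged genes called. A further run gave each gene the smaller of that spread and the spread of the livers besides WT replicate 2 and FL replicate 3. The latter spread was taken about group means that still included both. There limma called 66% and 92%, with 7 unchanged genes called. Reads per library were estimated from the spacing of low values (largest error 0.001 on 6 simulated libraries). The 8 genes and the lists were chosen with earlier results of these data known. Further genes named were Trp53, the 3 of each list with the smallest p, and the 2 most like each of the 8, of which 2 genes are not reported here. Proteins were not analysed here. Same-numbered mice are not described as pairs, and p-values measure the spread between mice.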

Additional observations from a re-analysis of the deposited data

Results flagged for a closer look

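Among the 4 FL livers, 36 results (the 8 genes, Trp53, 18 pathway genes and 9 summed marker lists) were searched for 1 liver far from the remaining 3, by Dixon's criterion on its gap to the nearest of them. For none of the 8 genes was there one. It was found for 6 of the 36, where independent results would give about 1.8 by chance. The 36 were not independent, since several marker lists were high together in FL replicate 3, so these counts are not a test. In FL replicate 3 the summed level was 140 normalised counts for the lymphocyte list (46 to 59 in the other FL livers), 1061 for the leukocyte list (449 to 545), 1316 for the stellate list (918 to 962) and 293 for the proliferation list (81 to 110). In FL replicate 2 Casp2 was at 120, with the other FL livers at 99 to 102, and Gsdme at 130, with the others at 143 to 145.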

How the results depend on the processing

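Under every setting tried, 0 of the 8 genes had a limma adjusted p under 0.05, and the lowest adjusted p of any was 0.571 (Ripk3 without WT replicate 2 and FL replicate 3). The direction of these small differences was not stable: of 141 fold changes under alternatives, 120 had the sign first given and 21 the opposite. The 120 include settings that changed only the gene filter or the variance estimate of limma. Those leave the fold change as it was and could not reverse a sign. With quantile normalisation the log2 fold changes of Casp1, Casp12 and Ripk3 were 0.00073, 0.0413 and 0.0317. Replicate numbers 1 to 3 occur in both genotypes, but no source describes them as pairs, so they were not taken as such. The correlation of the deviations of same-numbered livers from their group means was 0.44, -0.48 and -0.66. It cannot decide on pairing, because WT replicate 2 and FL replicate 3 pull the group means from which every deviation was taken. With the replicate number as a block, Casp12 was 0.0335 and Casp9 0.0028, and 0 of 8 genes passed. No WT liver has number 4, so this block takes FL replicate 4 out of the comparison. Its fold changes are those without FL replicate 4, and the 141 fold changes include both settings. Without WT replicate 2 and FL replicate 3, Casp12 was 0.26, Casp8 -0.0729, Casp6 0.0944, Ripk3 0.49 and Mlkl -0.0718, and 1 of 8 genes (Ripk3) had groups that did not overlap. Leaving out each liver in turn, Casp1 ranged from -0.62 to 0.0688, Casp12 from -0.46 to 0.34, Casp8 from -0.26 to 0.24, Casp9 from -0.13 to 0.0028, Casp6 from -0.37 to 0.18, Ripk1 from 0.03 to 0.13, Ripk3 from -0.44 to 0.52 and Mlkl from 0.02 to 0.20, with 0 to 1 gene whose groups did not overlap (Ripk1 without FL replicate 4, Ripk3 without WT replicate 2, Casp1 without WT replicate 3). The log2 ratio of group means, added after the data were seen, kept all 8 signs but was larger for Ripk3 (-0.36), Casp12 (-0.29) and Casp1 (-0.27). Across all genes 2 passed the adjusted threshold; none did with a pseudocount of 5, a minimum mean of 50, no trend in limma, or the replicate number as a block (404, 316, 465 and 110 at an unadjusted p under 0.05), quantile normalisation gave 1, leaving out 1 liver gave 0 to 5, and leaving out WT replicate 2 and FL replicate 3 gave 6. The cause of these changes was not tested. A mean of at least 50 leaves no value for Casp1, Casp12 and Ripk3.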
